A study of Danio rerio with 24 samples.

Results

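The cells described here are the neutrophils of the kidney marrow of adult fr105 zebrafish, as a gate on 4 transcripts finds them. A cell entered the gate if *mpx* (myeloperoxidase), *lyz* (lysozyme) and *npsn* (nephrosin, a secreted protease of fish granulocytes) together reached 5 transcripts and 20 per 10000 of its transcripts, and if it held fewer than 3 transcripts of *alas2*, which starts haem synthesis in red cells. The gate took 260 of the 304 fr105 cells, of 1008 cells in the whole series. The same gate took 194 of 359 IT325 cells and 203 of 345 wild-type cells. The cells were thus selected on the measured values of these 4 genes, and the levels of these genes and the shares of cells in the gate are given below as descriptions, with no test.

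Neutrophils are short-lived phagocytes that are made in large numbers in the marrow, where the kidney of a fish takes the place of mammalian bone marrow. They carry granules loaded with proteases and antimicrobial proteins, kill through an oxidase that makes reactive oxygen, and are held in the marrow and released from it by chemokine receptors such as Cxcr4. Ikaros, the zinc-finger protein encoded by *ikzf1*, is best known for its role in lymphocytes, but is also made in myeloid precursors.

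Whole kidney marrow of fish aged 3 months was sorted by light scatter, dead cells were excluded by a dye, and single cells were sequenced by mCEL-Seq2, a plate method that tags the 3′ end of each transcript with a unique molecular identifier (UMI). There were 8 libraries from fish homozygous for fr105, a CRISPR deletion in *ikzf1* after which the product keeps a single zinc finger, 8 from fish homozygous for IT325, an ENU-induced nonsense allele that removes the C-terminal zinc fingers, and 8 from wild-type fish of the same strain. All cells of an fr105 fish carry the deletion, so a neutrophil from these fish developed in a marrow in which every other lineage was mutant too. The labels name no fish, so the spread between libraries may be technical. The gated cells of a library held between 60585 and 269956 transcripts in fr105, 92887 and 260026 in IT325 and 57678 and 196771 in wild-type. The median per gated cell was 5280 transcripts in fr105, against 3688 in wild-type. Depth and RNA content per cell cannot be told apart here. Barcodes that a library did not use received transcripts in a pattern that followed the barcodes used by the other fr105 libraries (mean Spearman's rho 0.85 over 8 libraries), and much less so those used by wild-type libraries (0.02). The study's methods give 8 libraries per lane and parallel processing of wild-type and mutant cells, and the labels name no pool. Any handling that the fr105 libraries shared and the genotype therefore cannot be told apart. In IT325 libraries labelled P1 the pattern followed the barcodes used by wild-type libraries (mean rho 0.71 over 4 libraries) and by P1 libraries of IT325 (0.59). In those labelled P2 it followed the barcodes used by P2 libraries of IT325 (0.68 over 4 libraries). The pattern thus differed between the P1 and P2 libraries of IT325, and what lies behind it was not tested.

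*ikzf1* itself (ENSDARG00000013539) was detected in all 3 genotypes. Over all cells its level was 1.02 to 1.83 per 10000 transcripts in the 8 fr105 libraries (median 1.30), 1.04 to 2.06 in IT325 (median 1.73) and 0.25 to 0.85 in wild-type (median 0.57). A count made at the 3′ end does not read the deleted part of the gene, so this level does not check the labels.

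The gated fr105 cells did not form a single group. Their summed gate level ran from 20.8 to 1661 per 10000, with a median of 133, a lower quartile of 43.6 and an upper quartile of 614. Of the 260 cells, 140 (53.8%) lay at 100 per 10000 or more and 120 lay between 20 and 100. The limit of 100 was placed after these levels had been seen. In wild-type, 108 of 203 cells lay in the upper range. At the edge of the gate, 57 fr105 cells lay between 20 and 40 per 10000, and 27 lay between 10 and 20 and stayed outside. A further 3 were left out for *alas2*.

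The label was checked on 12 neutrophil markers that the gate does not use. After every cell had been thinned to 1500 UMIs, 138 of 139 upper-range fr105 cells (99.3%) held at least 3 of them, against 106 of 108 wild-type cells (98.1%). In the lower range 60 of 118 fr105 cells (50.8%) did so, against 73 of 95 wild-type cells (76.8%). One marker, *cxcr1*, was at 0 in every gated cell of fr105 and wild-type. Of the 12, *cpa5* was higher and *mmp13a*, *illr4* and *il6r* were lower in fr105 over the gate, as given below. Their part in the difference between the genotypes was not tested. The upper range thus carried neutrophil markers in nearly every cell, while much of the lower range did not, and "gated cells" is used below for the whole set.

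Macrophage, MHC class II, kidney tubule, erythroid, immediate early and mitochondrial transcripts were more abundant in the lower range of fr105. The erythroid list held 22.9 per 10000 in the lower and 13.2 in the upper range of fr105, against 54.4 and 41.8 in wild-type. Immediate early transcripts were at 46.3 and 22.6 in fr105 and at 72.7 and 25.7 in wild-type. Mitochondrial ones were at 546 and 363 in fr105 and at 379 and 344 in wild-type. Together the 10 macrophage-list genes held 56.3 per 10000 transcripts in lower-range fr105 cells and 2.94 in upper-range ones, against 12.7 in lower-range and 2.94 in upper-range wild-type cells. The list shares *cd74a* and *cd74b* with the class II list. In lower-range fr105 cells with 3 or more other neutrophil markers *cd74a* held 33.4 of the list's 52.8 per 10000. In those with fewer it held 30.5 of 60.1. The kidney tubule list held 14.3 per 10000 in the lower and 2.23 in the upper range of fr105, against 2.04 in the lower and 1.69 in the upper range of wild-type. At least 3 transcripts of the defining tubule markers *cdh17*, *slc13a3* and *slc20a1a* were present in 28 fr105 cells, 27 of them in the lower range, and in 0 of 203 wild-type cells. Defining macrophage markers (*marco*, *mpeg1.1* and the *c1q* genes) reached 3 transcripts in 18 fr105 cells, 16 of them in the lower range, and in 2 wild-type cells. The B cell list held 3.69 per 10000 in the lower and 3.89 in the upper range of fr105, the thrombocyte list 4.42 and 4.74, the innate lymphocyte list 3.40 and 7.55 and the T cell list 0.83 and 1.11. Of the 21 gated fr105 cells with 3 transcripts of the defining progenitor markers, 17 lay in the upper range. Of the 8 T cell genes 4 were detected in gated fr105 cells, and the defining ones, *cd4-1*, *cd8a* and *zap70*, were at 0. No doublet caller was run on these plates of sorted single cells. Results are given for the whole gate. Of the 76 named genes with a test, 46 also passed in the upper range in the same direction. A further 10 were tested there and did not pass, 1 changed sign, and the rest were not tested there. The upper-range value is given beside a gene described below whose call ended there.

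**Figure D1:**
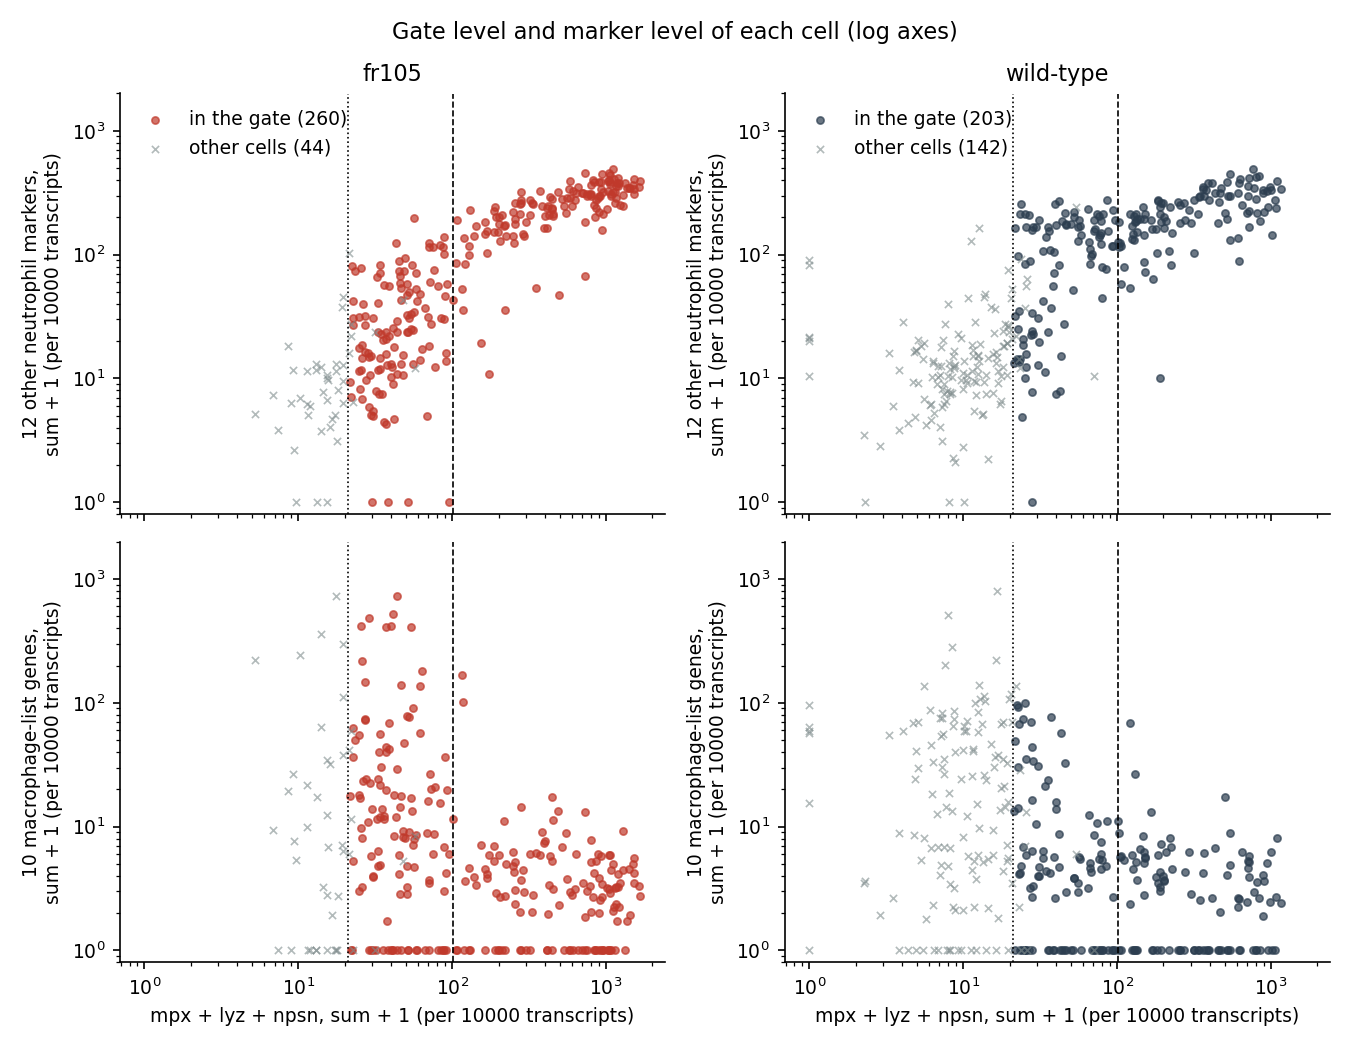
Each point is a cell, with fr105 on the left and wild-type on the right. The summed gate level (*mpx*, *lyz* and *npsn*) is on the x axis and the summed level of 12 other neutrophil markers (top) or of 10 macrophage-list genes (bottom) on the y axis, all as log of the sum + 1 per 10000 transcripts. The dotted line marks 20 and the dashed line 100 per 10000. The macrophage list includes the class II genes *cd74a* and *cd74b*. The other neutrophil markers are high in most upper-range cells of both genotypes, with a few cells as low as those outside the gate, and most fr105 cells with high macrophage-list levels lie between the lines.

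The 3 gate genes did not contribute equally in the genotypes. *npsn* (ENSDARG00000010423) stood at 72.8 to 147 per 10000 in gated cells of the fr105 libraries (median 124), at 33.9 to 84.7 in IT325 (median 63.1) and at 9.11 to 20.3 in wild-type (median 14.8). The lowest fr105 library was thus above the highest wild-type library. *lyz* (ENSDARG00000057789) overlapped widely, with 187 to 443 per 10000 in fr105 (median 388) and 132 to 451 in wild-type (median 339). *mpx* (ENSDARG00000019521) ran from 22.2 to 34.8 in fr105 and from 18.02 to 24.2 in wild-type. In the upper range *npsn* supplied 22.9% of gate transcripts in fr105 and 4.01% in wild-type. Since *npsn* helps a cell into the gate, the shares of cells, the gene fits and the measures per library were also made with a gate on *mpx* and *lyz* alone. Counts within gene lists, levels of single genes and variation among cells were taken from the whole gate and its ranges only.

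Gated cells were a larger share of fr105 marrow cells. They made up 73.9 to 100% of the cells of a library in fr105 (median 85.6%), 28.8 to 70.27% in IT325 (median 59.2%) and 46.7 to 71.4% in wild-type (median 59.1%). The fr105 and wild-type libraries did not overlap. The mean share was 85.1 ± 10.1% in fr105 and 59.4 ± 9.24% in wild-type (SD, n = 8), a difference of 25.6 percentage points. No test is given, since the gate genes define the share and *npsn* differed between the genotypes. Gate transcripts at unused barcodes numbered 1.19 to 1.89 per barcode in the fr105 libraries and 0.53 to 1.66 in wild-type, with overlap. How many low-level cells such transcripts brought into the gate of either genotype was not tested. Within the labelled sets the mean shares were 85.6% against 63.2% in P1 and 84.5% against 55.6% in P2. With *mpx* and *lyz* alone as the gate the difference was 20.3 points, and for the upper range it was 14.0 points. The difference was −0.34 points when gated cells with 3 or more defining transcripts of another class were left out (haemoglobin not counted). The cells left out still counted among all cells of a library. Such cells were 49.2% of the gated cells in fr105 and 25.6% in wild-type. The limit is a count in unthinned cells, which deeper cells reach more readily. Upper-range cells held a median of 6313 transcripts in fr105 and 4364 in wild-type. Of the cells that met the B cell limit, 61 of 81 in fr105 and 20 of 41 in wild-type lay in the upper range. The B cell list was at similar levels in that range of both genotypes. How far depth lies behind the −0.34 points was not tested.

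Transcripts of gated cells were summed per library, and fr105 was compared with wild-type across all genes (edgeR quasi-likelihood test, 8 against 8 libraries, Benjamini-Hochberg adjustment). Of 1641 genes tested, 293 passed an adjusted p of 0.05, which is 17.9%. The gate gene *npsn* is counted among the 293 and nothing is read from it. With the 3 gate genes left out of the fit 294 of 1666 genes passed. In fr105, 147 genes were higher (8.96%) and 146 lower (8.9%), and the 8 fr105 libraries did not overlap the 8 wild-type libraries for 80 genes (4.88%). The split depends on the centring: with every cell scaled to the same total and limma on log2 values, 103 genes were higher and 233 lower, and the median over all genes was −0.13 in place of 0.02. In the upper range 178 of 1109 genes passed (16.1%), 137 of them also among the 293, and in the lower range 102 of 531 (19.2%). In cells with 3 of the 12 other neutrophil markers 259 of 1462 passed (17.7%), 236 of them among the 293. Without cells holding defining markers of another class, haemoglobin not counted, 141 of 802 passed (17.6%). The same contrast in the other cells gave 21 of 797. It rested on the 5 fr105 libraries with at least 5 of the 44 other fr105 cells, against 8 wild-type libraries. Of the 293 genes 121 were tested there, and 103 of these had the same sign.

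The largest fold change was that of a gene for iron uptake. *tfr1b* (ENSDARG00000077372), a transferrin receptor, was at 0.74 to 2.34 per 10000 in the 8 fr105 libraries (median 1.35) and at 0.22 to 0.88 in IT325 (median 0.56). In wild-type it was at 0 in 7 libraries and at 0.12 in the remaining one. All fr105 libraries thus lay above all wild-type ones. The sums were 202 transcripts in fr105 and 1 in wild-type, a ratio of 114 with a 95% counting interval of 20.3 to 4533. At this wild-type level it could enter the test only through fr105, so no p is given against wild-type. It was higher in fr105 than in IT325 (log2 fold change 1.21), again without a p. The gene had been given as a marker of fr105 neutrophils before it was compared. It was present in 52.1% of upper-range and 24.2% of lower-range fr105 cells and in 13.6% of the other fr105 cells, whose median depth was 5661 transcripts.

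Of the 6 iron genes tested, of 20 in the list, 4 were higher and 1 lower in fr105, beside 8.96% higher and 8.9% lower over all tested genes. Since *tfr1b*, which could enter the test only through fr105, is 1 of the 4, the count is no support for a change of the list. *fthl27*, a ferritin heavy chain-like gene, stood at 1.55 to 3.87 per 10000 in fr105 and 0.44 to 1.02 in wild-type (log2 fold change 1.72 ± 0.24 SE). *steap4*, a metalloreductase, stood at 1.25 to 2.64 in fr105 and 0.12 to 1.07 in wild-type (1.15 ± 0.25). The groups did not overlap for either gene. *ncoa4*, which delivers ferritin for breakdown, was lower in fr105 (−0.81 ± 0.24), with 0.39 to 0.92 per 10000 in fr105 and 0.88 to 1.78 in wild-type. *fthl27*, *steap4* and *ncoa4* were each low in fr105 or in wild-type and entered the test through the other genotype, so no p is given.

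Several cathepsin genes were also higher. *ctsk*, which encodes cathepsin K, was at 0.79 to 2.48 per 10000 in fr105 (median 1.42), 0.54 to 2.38 in IT325 (median 1.27) and 0 to 0.17 in wild-type (median 0.069). Its fr105 and wild-type groups did not overlap (log2 fold change 4.36). It was found in 39.2% of lower-range and 49.3% of upper-range fr105 cells. *ctssb.2*, a cathepsin S gene, was at 0.83 to 2.15 in fr105 and 0 to 0.18 in wild-type (3.82). *ctsba*, a cathepsin B gene, was at 0.99 to 2.27 in fr105 and 0.21 to 0.73 in wild-type (1.79 ± 0.26 SE). Of the 9 lysosome genes tested, of 22 in the list, 6 were higher and 1, *ctsd*, a cathepsin D gene, was lower, beside 8.96% higher and 8.9% lower over all tested genes. *ctsk* and *ctssb.2* were near 0 and *ctsba* was low in wild-type, and each entered the test through fr105. No p is therefore given for them against wild-type, and the count is no support for a change of the list.

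Other transcripts were near 0 in wild-type gated cells. *f13a1b*, an A chain of coagulation factor XIII, which cross-links fibrin, was at 3.30 to 5.86 per 10000 in fr105 (median 3.91), 3.19 to 4.76 in IT325 (median 3.39) and 0 to 0.61 in wild-type (median 0.31). Its log2 fold change was 3.80 in all gated cells and 3.81 in the upper range. It is also on the thrombocyte list, whose summed level in gated cells was 4.62 per 10000 in fr105 and 0.59 in wild-type. *f13a1b* itself supplied most of that sum in fr105 and was the only member of the list tested. Defining thrombocyte markers reached 3 transcripts in 1 of 260 gated fr105 cells. *tgfbi*, which encodes a secreted matrix protein, was at 0.91 to 1.96 in fr105 and 0 to 0.36 in wild-type (4.30). It exceeded IT325 as well (1.40), without a p, since it could enter that test through fr105 alone. *col27a1a*, a fibrillar collagen gene, had 206 transcripts in fr105 and 3 in wild-type, a ratio of 38.8 with a counting interval of 13.1 to 190. *si:ch211-105c13.3* had 312 in fr105 and 2 in wild-type, a ratio of 88.2 with an interval of 24.2 to 731. *f13a1b*, *tgfbi*, *col27a1a* and *si:ch211-105c13.3* too could enter the test only through fr105, and no p is given for them against wild-type. *si:ch211-105c13.3* was lower in fr105 than in IT325 (−0.95, adjusted p = 0.00026, edgeR). The remaining genes of the 12 largest differences were *hipk2*, *fam43a*, *hspa12b*, *KRT18* and *msmbl*, with log2 fold changes of 3.45, 3.27, 2.99, 2.85 and 2.71.

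Next came single genes of the cell cortex and of myeloid regulation. *s100a10b*, an S100 protein that binds annexin A2, was at 4.49 to 6.51 per 10000 in fr105 and 1.02 to 3.58 in wild-type (log2 fold change 1.35 ± 0.21 SE, adjusted p = 1.6e-05, edgeR). *anxa2a*, an annexin A2 gene, went the other way, with 0.61 to 1.49 in fr105 and 1.87 to 3.55 in wild-type (−1.29 ± 0.20). *coro1ca*, an actin-binding coronin, was at 2.14 to 3.10 in fr105 and 0.21 to 1.19 in wild-type (1.81 ± 0.21). No group of these 3 genes overlapped. *anxa2a* was low in fr105 and *coro1ca* in wild-type. Each could enter the test through the other genotype alone, so no p is given for either. Of 20 actin cytoskeleton genes tested 4 were higher and 1 was lower, or 5 of 20 beside 17.9% over all genes. *spi1a*, a zebrafish gene for the myeloid factor Pu.1, was at 1.16 to 2.65 in fr105 (median 1.72) and 0.38 to 1.49 in wild-type (median 0.72). Its log2 fold change was 1.27 ± 0.25 in all gated cells and 1.65 in the upper range. No p is given for *spi1a*, which was low in wild-type and could enter the tests through fr105 alone. *cebpb*, a factor of the same lineage, was lower (−0.81 ± 0.21, adjusted p = 0.0077).

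Of the genes that were lower in fr105, *mhc1uba* stood out. This gene of the major histocompatibility complex (MHC) encodes a class I chain, a family whose genes vary between zebrafish haplotypes. It was at 0 in 7 of 8 fr105 libraries and at 0.44 in the remaining one, at 0 to 0.038 in IT325, and at 3.32 to 5.29 per 10000 in wild-type (median 3.97). The log2 fold change between fr105 and wild-type was −5.74, and −8.85 to −5.50 on leaving out a library. At this fr105 level the gene could enter the test only through wild-type, so no p is given. In the other cells, with 5 fr105 and 8 wild-type libraries, the fold change was −6.20, so it was not confined to gated cells. Of the 5 MHC class I genes tested 1 was higher, *mhc1zba* (0.71 ± 0.22 SE, adjusted p = 0.021, edgeR). The 1 that was lower is *mhc1uba* itself. Over all tested genes 8.96% were higher and 8.9% lower.

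Several receptor genes were lower. Of the 5 cytokine and chemokine receptor genes tested, of 20 in the list, 0 were higher and 4 lower, and of 6 matrix metalloproteinase-list genes 0 were higher and 3 lower (*mmp13a*, *adam8a* and *timp2b*, at −0.35, −0.46 and −0.16 in the upper range), beside 8.9% lower over all tested genes. *s1pr4*, a receptor for sphingosine-1-phosphate, was at 0.17 to 0.87 per 10000 in fr105 (median 0.58), 0.72 to 3.91 in IT325 (median 1.56) and 1.23 to 4.55 in wild-type (median 3.65). Its fr105 libraries lay below all wild-type ones (log2 fold change −2.48 ± 0.24 SE), and it was lower than in IT325 too (−1.65). At its low fr105 level *s1pr4* entered the tests through the other genotype. No p is therefore given for it, and the count of receptor genes is no support for a change of the list. *cxcr4b*, the chemokine receptor that retains neutrophils in marrow, was at 9.67 to 15.5 in fr105 (median 13.7). It was at 6.32 to 13.5 in IT325 (median 9.57) and 18.1 to 33.2 in wild-type (median 21.2). Its fr105 and wild-type libraries did not overlap (−0.68 ± 0.13 SE, adjusted p = 0.00049, edgeR). Its fold change was −0.38 in the upper and −1.37 in the lower range, and the call ended without cells holding markers of another class, haemoglobin not counted (−0.42, adjusted p = 0.080). *il12rb2l* was lower as well (−1.20 ± 0.20, adjusted p = 3.9e-05), at −0.80 in the upper range (adjusted p = 0.0496). *il6r* passed over the whole gate (−0.71 ± 0.25, adjusted p = 0.045) but was at 0.06 in the upper range (adjusted p = 0.93).

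Further large decreases were seen for *ca6*, a carbonic anhydrase (log2 fold change −4.03), *maptb*, a tau gene (−3.90), *cfbl*, a complement factor B-like gene (−3.32), *calm1b*, a calmodulin gene (−3.19), and *zgc:153129* (−2.51). For these 5 genes the highest fr105 library lay below the lowest wild-type one. *cfbl* and *zgc:153129* were lower than in IT325 by similar amounts (−3.38 and −2.75). *thy1*, a surface glycoprotein, was at 1.00 to 2.97 per 10000 in fr105, 0.85 to 2.26 in IT325 and 5.27 to 10.8 in wild-type, and its log2 fold change was −2.02 in all gated cells and −2.01 in the upper range. *nccrp1*, known as a receptor of cytotoxic cells in teleosts, was at 3.96 to 6.53 in fr105, 4.78 to 6.52 in IT325 and 12.3 to 18.2 in wild-type (−1.38 ± 0.14 SE, adjusted p = 9.4e-09, edgeR). It is on the innate lymphocyte list, whose summed level was 4.62 to 7.34 per 10000 in gated fr105 cells and 13.4 to 18.3 in wild-type. *nccrp1* itself supplied most of that sum and was the only member of the list tested. Of that list's defining markers *nkl.2* and *nkl.3* were at 0 in gated fr105 cells, while *nkl.4* was detected, and 1 of 260 cells reached 3 transcripts of the 3 together. *sult2st1*, a sulfotransferase, *abo*, *matk*, a tyrosine kinase, and *zgc:152891* complete the 12 largest decreases, at −2.04, −2.02, −1.98 and −1.92.

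**Figure D2:**
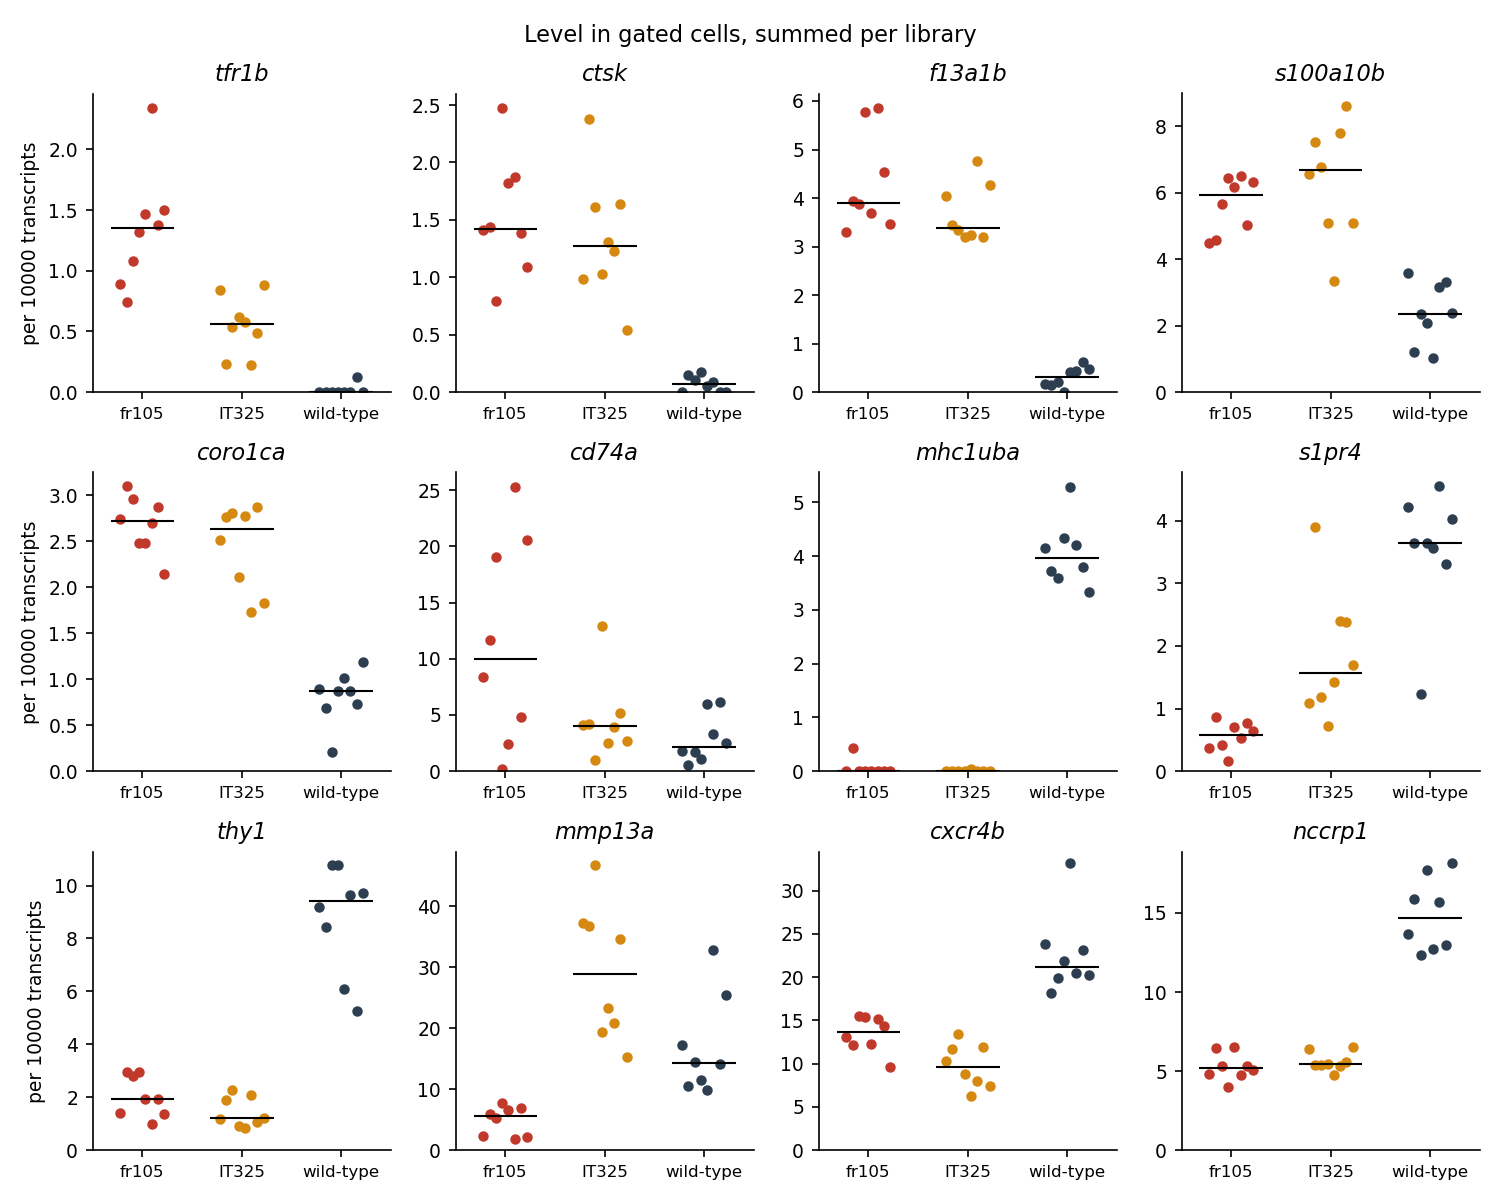
Levels of 12 genes in gated cells, as transcripts per 10000 summed per library, for fr105, IT325 and wild-type (points, 8 libraries each; bar, median). *tfr1b*, *ctsk*, *f13a1b*, *s100a10b* and *coro1ca* are higher in every fr105 than in any wild-type library, *mhc1uba*, *s1pr4*, *thy1*, *mmp13a*, *cxcr4b* and *nccrp1* are lower, and *cd74a* overlaps.

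Neutrophil markers outside the gate moved in both directions. Of 10 further neutrophil markers tested 1 was higher, 3 were lower and 6 did not pass, or 4 of 10 beside 17.9% over all genes, and their median was −0.05 on the log2 scale, against 0.02 over all genes. The 3 that were lower did not pass in the upper range, with *mmp13a* at −0.35 (adjusted p = 0.40), *illr4* at −0.35 (adjusted p = 0.24) and *il6r* at 0.06 (adjusted p = 0.93). *lect2l* was at 83.0 to 139 per 10000 in fr105 and 82.0 to 134 in wild-type, and *srgn*, the granule proteoglycan serglycin, at 26.0 to 40.6 and 32.9 to 44.5. *cpa5*, a carboxypeptidase, was higher in fr105 (0.57 ± 0.16 SE, adjusted p = 0.014, edgeR) with overlapping libraries. Among oxidase and redox genes 5 of 14 tested were higher and 0 lower, beside 8.96% higher over all genes, with a median of 0.38. *prdx5*, a peroxiredoxin, was at 6.23 to 11.4 in fr105 and 2.82 to 6.59 in wild-type (0.68 ± 0.15, adjusted p = 0.0018). It was at 0.83 in the upper range (adjusted p = 0.00066) and 0.15 in the lower range (adjusted p = 0.81). The level of *gpx1a*, a glutathione peroxidase, was 4.56 to 9.08 in fr105 and 2.69 to 5.03 in wild-type (0.73 ± 0.17, adjusted p = 0.0024). *txn* (ENSDARG00000031435), thioredoxin, was higher than in wild-type (0.63) and in IT325 (1.89, adjusted p = 3.2e-10).

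Stress-related transcripts moved in both directions. *dusp1*, a phosphatase that ends kinase signalling, was at 0.46 to 1.60 per 10000 in fr105 and 1.54 to 7.97 in wild-type (log2 fold change −2.29 ± 0.32 SE). *nfkbiab*, an inhibitor of NF-κB, was lower without overlap (−1.04 ± 0.18, adjusted p = 6.1e-05, edgeR). *zfp36a*, which destabilises mRNA, was higher than in wild-type (0.87 ± 0.19, adjusted p = 0.0011) and in IT325 (1.81). Of 11 immediate early genes tested 3 were higher and 2 lower, or 5 of 11 beside 17.9% over all genes. *hspa5*, the chaperone of the endoplasmic reticulum, was at 0.63 to 2.02 in fr105 and 2.25 to 8.34 in wild-type (−1.56 ± 0.26). *dusp1* and *hspa5* were low in fr105 and could enter the test through wild-type alone, so no p is given for them. Of 82 ribosomal protein genes 0 were higher and 1, *rps26l*, was lower, or 1 of 82 beside 17.9% over all genes. Of 5 cell division genes the lowest adjusted p was that of *lig1*, a DNA ligase gene, at 0.17 (unadjusted p = 0.052, edgeR).

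For a few transcripts the fold change was larger in the lower gate range. *mmp13a*, a collagenase of neutrophils, was at 1.76 to 7.77 per 10000 in fr105 (median 5.60), 15.3 to 46.7 in IT325 (median 29.0) and 9.82 to 32.8 in wild-type (median 14.3). The fr105 libraries lay below all wild-type ones over the whole gate (log2 fold change −1.74 ± 0.28 SE, adjusted p = 2.9e-05, edgeR) and below IT325 (−2.64, adjusted p = 3.9e-08). In upper-range cells *mmp13a* was at 1.97 to 10.3 in fr105 and 4.20 to 14.7 in wild-type, a log2 fold change of −0.35 (adjusted p = 0.40). In lower-range cells it was at 0.37 to 4.45 in fr105 and 14.95 to 49.4 in wild-type (−3.89). No p is given there, since at this fr105 level it could enter the test through wild-type alone. The ranges are set by the gate level, to which *npsn* gave more in fr105 (26.5% of gate transcripts in the lower range of fr105, against 8.456% in wild-type), so the ranges need not hold like cells in the genotypes, and the difference between them is a description with no test. Among lower-range fr105 cells *mmp13a* was at 3.38 per 10000 in the 60 cells with 3 or more other neutrophil markers and at 0.42 in the other 58, and in wild-type at 40.3 in 73 cells and 0.40 in 22. *mmp13a* is itself one of the markers counted in this split, so its fall from one side to the other was built in and nothing is read from it.

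The class II transcripts also changed more in the lower range, but were higher in fr105. *cd74a*, which encodes the invariant chain of MHC class II, was at 0.17 to 25.3 per 10000 in fr105 (median 10.01) and 0.53 to 6.13 in wild-type (median 2.14). The libraries overlapped, and fr105 replicate 4 was the lowest of all 16. Its log2 fold change was 2.07 ± 0.48 SE over the gate (adjusted p = 0.0024, edgeR), 2.84 in the lower range (adjusted p = 0.0020) and 0.34 in the upper range (adjusted p = 0.63), where it was at 0.23 to 3.16 in fr105 and 0 to 1.92 in wild-type. All 3 class II genes tested were higher over the gate, beside 8.96% over all genes, with *cd74b* at 1.83 and *mhc2dab* at 3.60 beside *cd74a*. *mhc2dab* was low in wild-type (median 0.19 per 10000) and entered the test through fr105. The count of class II genes is therefore no support for a change of the list. The other fr105 cells held *cd74a* at 31.6 per 10000 and the lower-range gated cells at 31.8. Macrophage-list, tubule and class II transcripts thus moved together with the lower range, and their part in these differences was not tested. The macrophage and class II lists share *cd74a* and *cd74b*, so they are not separate readings. Of 11 mitochondrial genes tested 7 were higher and 0 lower, beside 8.96% higher over all genes, and the fold changes were 0.44 in the upper and 1.73 in the lower range for *MT-ND1*, and 0.28 in the upper and 1.24 in the lower range for *MT-CO1*.

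**Figure D3:**
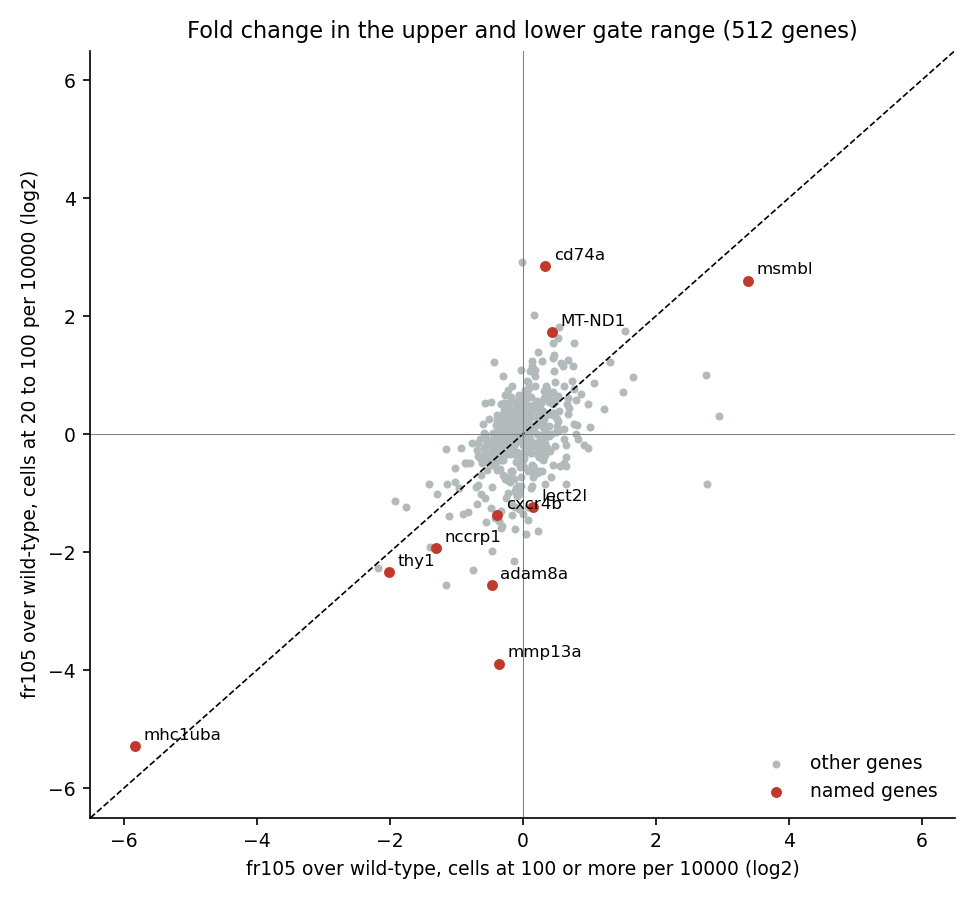
Log2 fold change of fr105 over wild-type in cells of the upper gate range (x axis) and the lower gate range (y axis) for 512 genes tested in both (red, genes named on the plot). *mhc1uba*, *thy1* and *nccrp1* lie near the dashed line of equal change, *mmp13a* and *cd74a* far from it.

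Set against the other allele, fr105 gated cells differed at 390 of 2084 genes (18.7%; edgeR, 8 against 8 libraries), 208 higher (9.98%) and 182 lower (8.73%), and the libraries did not overlap for 83 genes (3.98%). Both comparisons share the fr105 libraries. IT325 gated cells held more erythroid-list transcripts, at 63.9 to 152 per 10000, against 3.11 to 37.6 in fr105 and 10.7 to 90.4 in wild-type, and *hbaa1* was lower in fr105 than in IT325 (−2.45) and than in wild-type (−1.60, adjusted p = 0.0092, edgeR), though in set P1 alone its fold change over wild-type was 0.30. How far haemoglobin transcripts from other cells enter these values was not tested.

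At the level of single cells, 15 measures per library were compared, and 7 passed (two-sided exact permutation tests, Benjamini-Hochberg over the 15). After thinning to 1500 UMIs, *mmp13a* was present in 21.6 to 46.2% of gated cells per library in fr105 (mean 34.7 ± 8.64%, SD, n = 8) and in 50 to 92.0% in wild-type (62.3 ± 14.5%), a difference of −27.6 points without overlap. Unthinned, the difference was −25.3 points. In the upper range it was −7.85 points after thinning (exact permutation, adjusted p = 0.37). *ctsk* was present in 10.8 to 23.7% in fr105 and 0 to 4.0% in wild-type, a difference of 16.2 points, and of 17.0 points in the upper range. No p is given for *mmp13a* and *ctsk* over the whole gate, since both were chosen with earlier results of these data known. *ctsk* was also near 0 in wild-type. Both are counted among the 7 measures that passed, and nothing is read from that. Unthinned, the difference in *ctsk* was 42.7 points over the gate, and it was found in 29.5% of the other fr105 cells and 7.75% of the other wild-type cells. Cells with 2 or more UMIs of the cell division list made up 7.89 to 25.6% in fr105 and 20.8 to 48.0% in wild-type (−17.8 points, exact permutation, adjusted p = 0.0031). Unthinned, the difference was −14.7 points (exact permutation, adjusted p = 0.064). The list held 10.1 per 10000 transcripts in fr105 and 16.7 in wild-type. No phase was called.

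Median transcripts per gated cell were 3264 to 6089 in fr105 and 2937 to 4418 in wild-type (exact permutation, adjusted p = 0.010). Mitochondrial transcripts were 3.69 to 5.40% in fr105 and 3.18 to 4.31% in wild-type (exact permutation, adjusted p = 0.013), but in the upper range the difference was 0.24 points (exact permutation, adjusted p = 0.27). MHC class II transcripts were 0.035 to 0.43% in fr105 and 0.017 to 0.099% in wild-type (exact permutation, adjusted p = 0.016), with a difference of 0.00952 points in the upper range (exact permutation, adjusted p = 0.25). The share of thinned cells with a progenitor UMI was 12.5 points lower in fr105 (exact permutation, adjusted p = 0.029), but the unthinned difference was 0.39 points and the progenitor list held 4.0 per 10000 in fr105 and 3.30 in wild-type, so no order is read from it. Genes per thinned cell (median 687 in fr105 and 681 in wild-type), ribosomal, immediate early, glycolysis and MHC class I transcripts, *mmp9* and *cpa5*, and the mean correlation between cells of a library (0.367 ± 0.018 in fr105 and 0.381 ± 0.024 in wild-type, SD, n = 8) did not pass.

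**Figure D4:**
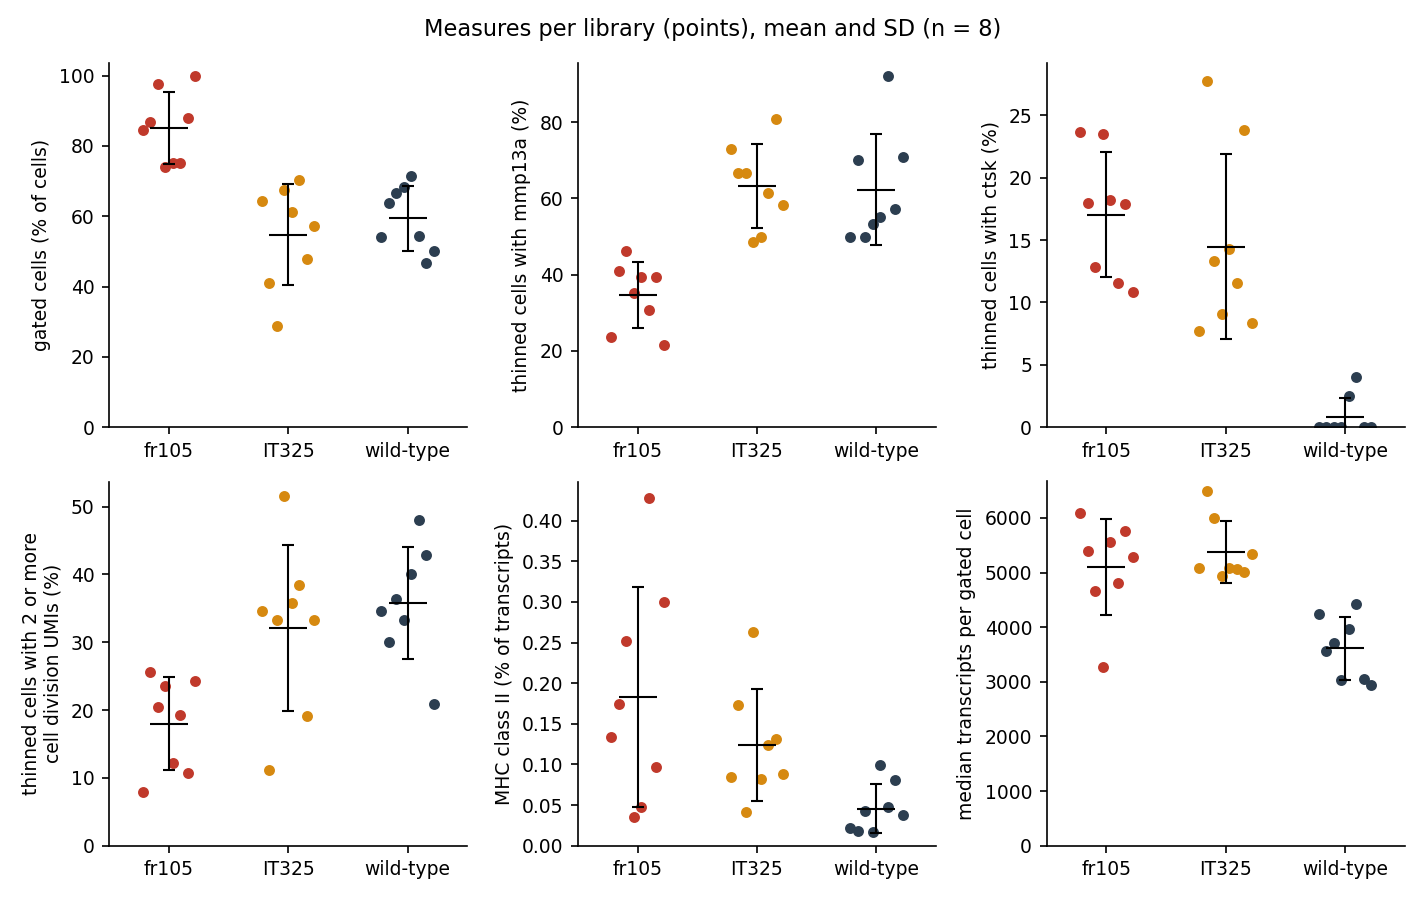
Measures of gated cells in each library (points) with the mean and SD (n = 8) for fr105, IT325 and wild-type. The share of gated cells and the shares of thinned cells with *ctsk* lie higher in all fr105 than in all wild-type libraries, and the share with *mmp13a* lies lower; the other panels overlap.

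Variation among the gated fr105 cells was read from thinned counts. Over 820 genes with a mean of at least 0.2 UMI in 257 thinned cells, the median Fano factor (variance over mean) was 1.38. The entry ENSDARG00000080337, present in every cell, had the largest value, 136 in fr105 and 44.6 in wild-type. It took a median of 33.2% of transcripts in lower-range and 21.4% in upper-range fr105 cells. The gate gene *lyz* had 57.3. Most other leading genes were present in few cells: *sepp1a*, a selenoprotein P gene (37.2), was found in 20.6%, *cd74a* (31.3) in 31.1% and *grn1*, a progranulin gene (22.3), in 11.7%. The Fano factors of *sepp1a* and *cd74a* in wild-type gated cells were 6.26 and 5.62.

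Across the 257 thinned fr105 cells, which share libraries and depth, the gate level rose with *lect2l* (Spearman's rho 0.85), *srgn* (0.83) and *cpa5* (0.72), and with the cytoskeletal genes *actb1* (0.71) and *pfn1* (0.66). It ran against *cd74a* (−0.42), *cd74b* (−0.39), *mhc2dab* (−0.36) and *MT-CO1* (−0.32). These are descriptions over cells that the gate itself selected.

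The 44 other fr105 cells differ from the gated ones by construction, and 43 of them still held 3 or more transcripts of the defining neutrophil markers, with a median gate level of 14.4 per 10000, against 8.96 in the other wild-type cells. Low gate levels are thus present in cells outside the gate. Among 1736 genes with at least 100 transcripts in gated cells, *lect2l* had 108 per 10000 in gated and 4.39 in other cells, *cpa5* 22.4 and 0.98, *timp2b*, an inhibitor of metalloproteinases, 3.79 and 0.19, and *thy1* 1.98 and 0.11. Each was higher in gated cells in 7 of 7 libraries, since fr105 replicate 8 had no other cell. At the opposite end, the haemoglobin genes *ba1* and *hbaa1* held 7.96 and 7.60 per 10000 in gated and 485 and 414 in other cells.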

How the data were processed

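Reads had been demultiplexed with bcl2fastq 2.17.1.14 and aligned with BWA 0.6.2-r126 by the authors, per the labels and the study's methods, to Ensembl gene models with extended 3′ ends, on the sense strand, without reads matching several loci. The deposited values are expected counts: the authors counted UMIs of 6 bases and corrected them for collisions, without normalization or cell filter. Undoing the correction returned whole UMI counts within 4.1e-12. A UMI of 6 bases allows 4096 tags, so abundant transcripts are least precise, and genes with near-identical copies lose reads. Cells were barcodes among the 96 used per library with at least 1500 transcripts. Transcripts of gated cells were summed per library (every library had at least 5 such cells), rounded, filtered (filterByExpr), scaled by TMM and tested with edgeR 4.0.16 (R 4.3.3). A gene low in either genotype could pass this filter through the other alone. DESeq2 1.42.0 and limma 3.58.1 (pseudocount 0.1) were alternatives. Python 3.11.15 and scipy 1.17.1 gave the exact tests. P-values measure the spread between libraries. In simulated fr105 and wild-type sums of 1641 genes, 75 of 100 genes changed 2-fold and 79 of 100 changed 4-fold were recovered, and 3.75% of calls were false.

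Named genes were the 12 largest increases and 12 largest decreases among genes past the threshold without overlap, up to 4 called members of each gene list, the gate genes, *tfr1b* and *ikzf1*, the 15 largest ratios to other cells and the 15 largest Fano factors, of which the text shows a selection. Genes chosen after their values were seen are *lect2l* and *srgn* beside the neutrophil markers and those listed by their correlation. Members, lists and gate ranges were chosen with earlier results of these data known. Replicate numbers did not pair the libraries (correlation of same-numbered deviations −0.10 to 0.12). No 2 libraries held the same counts. Well barcodes recur between libraries by design, and 105 of 164 fr105 positions were used in more than 1 library, with 0 shared profiles. Genome coordinates and sequences were not used here.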

Additional observations from a re-analysis of the deposited data

Results flagged for a closer look

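In groups of 8 libraries a value was singled out where its gap to the next library exceeded 0.526 of the range. Chance does this in about 1 group in 20, and it happened in 18 groups, 9.38% of those examined. In fr105, replicate 4, the shallowest library with 17 gated cells, was highest for *gpia* (3.80 per 10000), *steap4* (2.64) and the share of cells with *cpa5* (94.1%) and lowest for *klf6a* (0.17). Replicate 2 was lowest for *lyz* (187) and highest for *ca6* (0.65), *mhc1uba* (0.44) and *maptb* (0.44). Replicate 6 was highest for *cd74b* (10.7). In wild-type, replicate 5 was highest for *cd74b* (3.10) and *cxcr4b* (33.2), replicate 7 for *tfr1b* (0.12) and *msmbl* (2.33), replicate 3 for *mhc2dab* (0.72) and lowest for *s1pr4* (1.23), replicate 4 highest for *col27a1a* (0.17), replicate 8 for *tgfbi* (0.36) and replicate 6 for mitochondrial transcripts (4.31%).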

How the results depend on the processing

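The count of 293 genes for fr105 against wild-type became 853 without a filter on low counts, 77 after thinning to 1500 UMIs (420 genes tested), 127 in set P1 alone, 29 without cells holding 3 transcripts of other defining markers (79 fr105 and 35 wild-type cells left, 765 genes tested) and 141 with haemoglobin not counted. It was 178 in the upper range, 102 in the lower range and 166 with *mpx* and *lyz* alone at 100 per 10000. With *mpx* and *lyz* alone at 20 per 10000 it was 269 (1529 genes tested), of which 248 were among the 293. With the replicate block, which the numbers do not warrant, it was 260, of which 249 were among the 293. Leaving out each library gave 262 to 331. For fr105 against IT325 the 390 genes became 692 without a filter, 72 thinned, 132 in P1, 215 in P2, 95 with the replicate block, 153 without cells holding other markers (haemoglobin not counted) and 85 in the lower range, and 322 to 398 on leaving out a library. Of the 76 named genes with a test, those still past the threshold in the same direction numbered 25 thinned, 50 in P1, 15 and 41 without cells holding other markers (haemoglobin counted and not counted), 46 in the upper range, 30 in the lower range, 43 with *mpx* and *lyz* alone at 100 and 68 to 75 on leaving out a library. Fewer genes were tested in each of the smaller sets of cells. Named genes that were tested with the same sign but did not pass numbered 9 thinned, 10 in the upper range and 10 in the lower range. Apart from sign changes, the remaining ones were not tested there. Over 2605 refits of named genes 5 changed sign: *il6r* (0.056 in the upper range, 0.088 with *mpx* and *lyz* alone at 100), *timp2b* (0.42 without cells holding other markers), *sla1* (−0.18 in the lower range) and *hbaa1* (0.30 in P1). The cause was not tested.

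Of the 15 measures 7 passed, against 0 in either set alone, where 4 against 4 libraries limit an exact test, 4 with a gate of 10 transcripts and 50 per 10000, 3 in the upper range, 3 with *mpx* and *lyz* alone at 100 and 3 with the replicate block. The difference in share turned to −0.34 points without cells holding other markers (haemoglobin not counted), a limit that deeper cells reach more readily. Sign changes of measures were −0.69 and −38.0 for genes per cell (without cells holding other markers, and in the lower range), 0.038 for immediate early transcripts in P1, −0.042 (P2), −0.012 (lower range) and −0.00552 (*mpx* and *lyz* alone at 20) for MHC class I, −3.11 for *cpa5* in cells of at least 3000 transcripts, 0.39 for the progenitor share unthinned, and 0.021, 0.023 and 0.00564 for the correlation between cells (upper range, *mpx* and *lyz* alone at 100, 3 other markers). On leaving out a library MHC class I ran from −0.00603 to 0.0127 and *cpa5* from −0.623 to 4.58. Not run were the planned removal of cells with other markers for IT325 and for the measures, which left too few cells.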
